A study of Mus musculus with 10 samples.

Results

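The genes described here encode subunits of the mitochondrial respiratory chain and of ATP synthase, together with the assembly factors that share their name prefixes. A gene was taken where its name in any of the 4 deposited consensus peak tables began with Nduf, Uqcr, Atp5, Sdha to Sdhd, or Cox4 to Cox8. This gave 93 genes of the 20556 named in the tables, of which 42 belong to complex I, 6 to complex II, 8 to complex III, 20 to complex IV and 16 to complex V. The remaining gene, Atp5sl, was counted with none of these. Ndufa4 and its relative Ndufa4l2 were counted with complex IV, where their proteins are found. Of the 93, 10 were classed as assembly factors, without Atp5sl. Another 8 are isoforms known mainly from muscle, testis, lung or hypoxic cells (Cox4i2, Cox6a2, Cox6b2, Cox7a1, Cox7b2, Cox8b, Cox8c and Ndufa4l2), called tissue-restricted below. The other 85 are widely used.

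The data are chromatin immunoprecipitation sequencing (ChIP-seq) of 4 histone marks in mouse neutrophils, sorted and not cultured. WT libraries came from C57BL6 mice, and KO libraries from mice of that background lacking Morrbid, a long non-coding RNA that the series title links to Bim and to the lifespan of short-lived myeloid cells. Each mark has 1 library per genotype, so no difference has a replicate check, no test was possible, and intervals cover counting error between 2 libraries only. The labels do not say how Morrbid was removed, how many animals gave cells or which sort gate was used.

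The respiratory chain passes electrons from NADH (complex I) or succinate (complex II) through complexes III and IV to oxygen and pumps protons, and complex V uses the proton gradient to make ATP. Nuclear genes encode all of complex II and most subunits of the other complexes. Mature neutrophils are known for few mitochondria and a strong reliance on glycolysis. H3K4me3 marks promoters, H3K27ac active promoters and enhancers, H3K4me1 enhancers and promoter flanks, and H3K36me3 the bodies of transcribed genes.

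The tables gave normalized reads per peak, which divided into whole reads in 100% of peaks. WT libraries held 2250264 to 11618230 reads in peaks. The KO to WT ratio of reads was 5.87 in H3K4me1, 3.85 in H3K4me3, 4.56 in H3K27ac and 1.13 in H3K36me3. All 9 of the neutrophil marker genes named in the tables carried H3K27ac over their starts, at 45.3 to 104 normalized reads per kb in the WT and 45.3 to 98.8 in the KO. None of 5 B cell and none of 4 erythroid markers carried it. Of 5 T cell markers 2 did, and of 5 macrophage or monocyte markers 4 did, at no more than 35.0 in the WT and 37.2 in the KO. The other marks separated the types less. H3K4me3 lay over 3 of the 4 erythroid markers, with Klf1 at 130.2 and 143, inside the 85.2 to 188 of neutrophil markers in the WT, and over 2 of 5 B cell, 1 of 5 T cell (Tcf7, 90.4 and 83.9) and 3 of 5 macrophage markers. H3K36me3 lay in 7 of 9 neutrophil markers and in 5 of 5 macrophage markers, the latter at 19.6 to 37.1 in the WT. It also lay in 2 of 5 B cell, 1 of 5 T cell and 1 of 4 erythroid markers. The part of other cells in the values below was not tested.

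Nearly every gene of the set carried the promoter marks. A gene of the chain with another name prefix, or with no peak named for it, is not in the set. A gene start could be placed in 92 of the 93 genes, all but Cox8c. H3K4me3 lay within 500 bases of 89 of the 92 starts (96.7%), compared with 72.2% of all 19903 starts placed. H3K27ac covered 88 (95.7%, against 61.7%) and H3K4me1 87 (94.6%, against 65.8%). All 85 widely used genes had both H3K4me3 and H3K27ac over the start. Peaks here are 1 consensus set for both libraries, so these counts are not per genotype. A peak of the set need not have been called in each library. Of the 53500 H3K4me3 peaks, 17753 stood at the minimum of 1 read in the WT and 12813 in the KO.

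In the WT the highest H3K4me3 densities at starts belonged to Atp5j, a stalk subunit of ATP synthase, at 266 normalized reads per kb in the WT and 240.3 in the KO, and to Ndufa13, an accessory complex I subunit, at 262.5 and 260.4. Uqcrc1, a core protein of complex III, followed with 241 and 221. In the KO Ndufa13 was above Atp5j, and Atp5g3 (237), Ndufaf5 (233) and Uqcrc2 (231) were above Uqcrc1. The median over the 89 genes was 171 in the WT and 178 in the KO, above the 128 and 136 of all genes with such a peak. For H3K27ac the order in the WT was another one. Uqcrh, the complex III hinge protein, led with 179 in the WT and 181 in the KO, then Atp5l, a membrane subunit of ATP synthase, with 173 and 168, and Ndufa10, an accessory complex I subunit, with 166 and 153. In the KO Sdhc, a complex II anchor, had 169, above both of these. The median was 79.3 in the WT and 85.2 in the KO, against 65.4 and 67.0 over all genes. H3K4me1 at these starts was at the level of all genes, 37.7 against 37.9 in the WT. Its highest WT value was at Uqcr10, a small complex III subunit, with 79.3 and 70.0, and its lowest WT value at Atp5o, the oligomycin-sensitivity subunit of ATP synthase, with 22.7 and 38.5.

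By complex, median WT H3K4me3 per kb was 177 for complex I, 161 for II, 186 for III, 148 for IV and 196 for V. Assembly factors lay close to structural subunits in H3K4me3, with medians of 168 and 173 in the WT and 169 and 179 in the KO. Their H3K27ac was 69.0 in the WT and 70.0 in the KO, against 85.3 and 87.3 in structural subunits, within overlapping ranges. Peaks of H3K4me3 were narrower than usual, with a median width of 1.89 kb against 2.37 kb over all genes. The widest stood at Ndufa4l2 (7.35 kb), Atp5d (7.08 kb) and Ndufv3 (6.51 kb), and these had low densities, 42.2, 83.5 and 74.9 in the WT. Rank order was much the same in both genotypes. Across the family, Spearman's rho between WT and KO density was 0.91 for H3K4me3 (89 genes), 0.90 for H3K27ac (88) and 0.65 for H3K4me1 (87). Over all genes with such peaks it was 0.97, 0.92 and 0.73. The median gene of the family had 142, 53.5 and 38 WT reads in these start peaks. Between H3K4me3 and H3K27ac in the WT rho was 0.31, over 88 genes that share the same cells and partly the same peaks. Over all genes with both peaks it was 0.49.

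**Figure D1:**
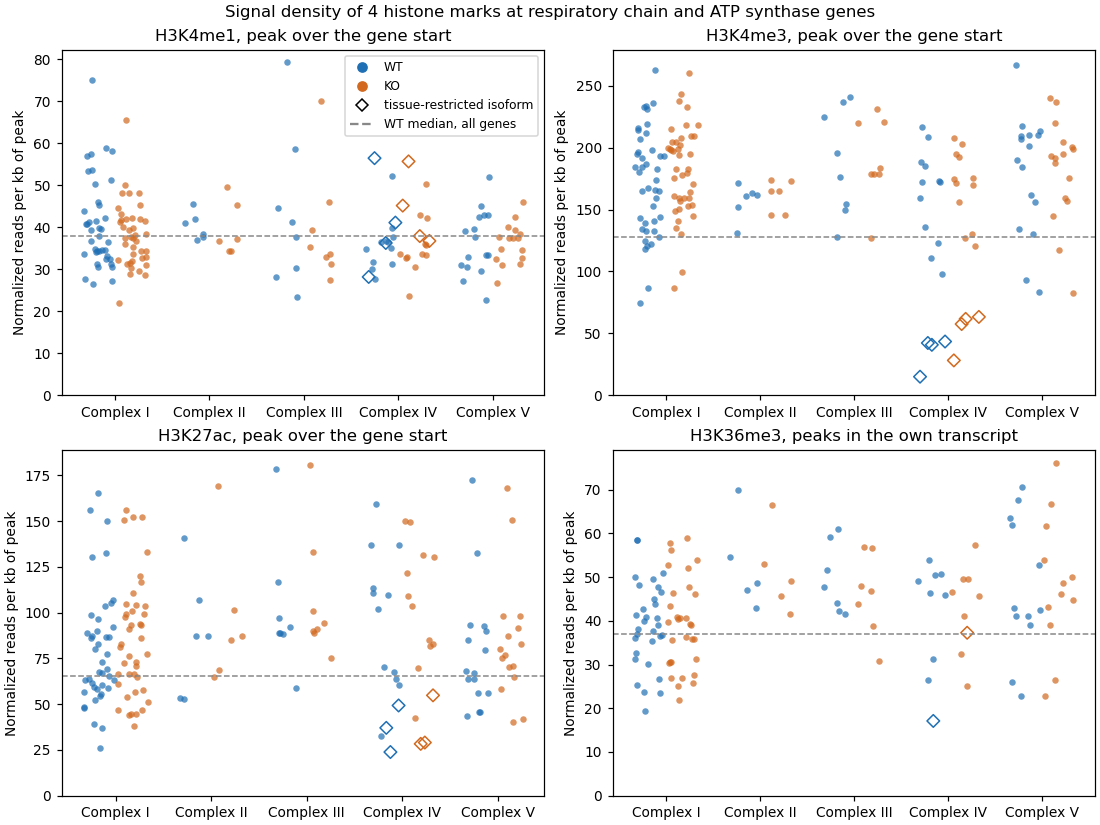
Normalized reads per kb of peak (vertical axes) for each gene, by complex, in the WT (blue) and KO (orange) library of each mark. Each point is 1 gene, open diamonds are tissue-restricted isoforms, and the dashed line is the WT median over all genes; in the H3K4me3 panel 4 diamonds lie far under every other gene, at 15.0 to 43.4 in the WT.

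Tissue-restricted isoforms had less H3K4me3 and H3K27ac at their starts than the widely used genes they pair with. Only 4 of the 7 that could be placed had H3K4me3 there and 3 had H3K27ac. Cox6a2 (heart and muscle), Cox7b2 (testis) and Cox8b (heart, muscle and brown fat) had neither, while Ndufa4l2 had H3K4me3 but no H3K27ac. Where an H3K4me3 peak was present its density was low, although the wide peak of Ndufa4l2 held 311 normalized reads in the WT and 423 in the KO in all. Cox4i2, the lung form of subunit 4, had 15.0 normalized H3K4me3 reads per kb in the WT and 28.2 in the KO, and its widely used partner Cox4i1 had 216 and 195. Cox6b2, the testis form, had 40.8 and 61.7, and Cox6b1 173 and 170.1. For Cox7a1, the heart and muscle form, the values were 43.4 and 63.3, and for Cox7a2 209 and 203. In each of these pairs both libraries gave the widely used form the higher density.

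H3K27ac gave the same ordering. Cox4i1 had 159 in the WT and 149 in the KO against 37.1 and 28.3 in Cox4i2. Cox6b1 had 67.6 and 85.3 against 23.9 and 29.1 in Cox6b2, and Cox7a2 137 and 150.1 against 49.3 and 54.8 in Cox7a1. The last is above the widely used Cox7b, and in the WT above Atp5g1 at 43.4. H3K4me1 did not follow this order. Its median was 38.7 in the WT and 41.5 in the KO over the 4 tissue-restricted isoforms with a start peak, against 37.6 and 36.7 in structural subunits, and Cox6b2 had 56.4 and 55.7 against 36.5 and 30.6 in Cox6b1. Cox7b, which is X-linked in mammals, had the lowest H3K4me3 of the widely used members of these pairs, 97.8 and 120.3, and the lowest H3K27ac, 32.8 and 42.2. The c-subunit paralogs of ATP synthase, which encode the same mature protein, were unequal too. Atp5g3 had 217 and 237 normalized H3K4me3 reads per kb, Atp5g2 134 and 145, and Atp5g1 93.1 and 118.

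**Figure D2:**
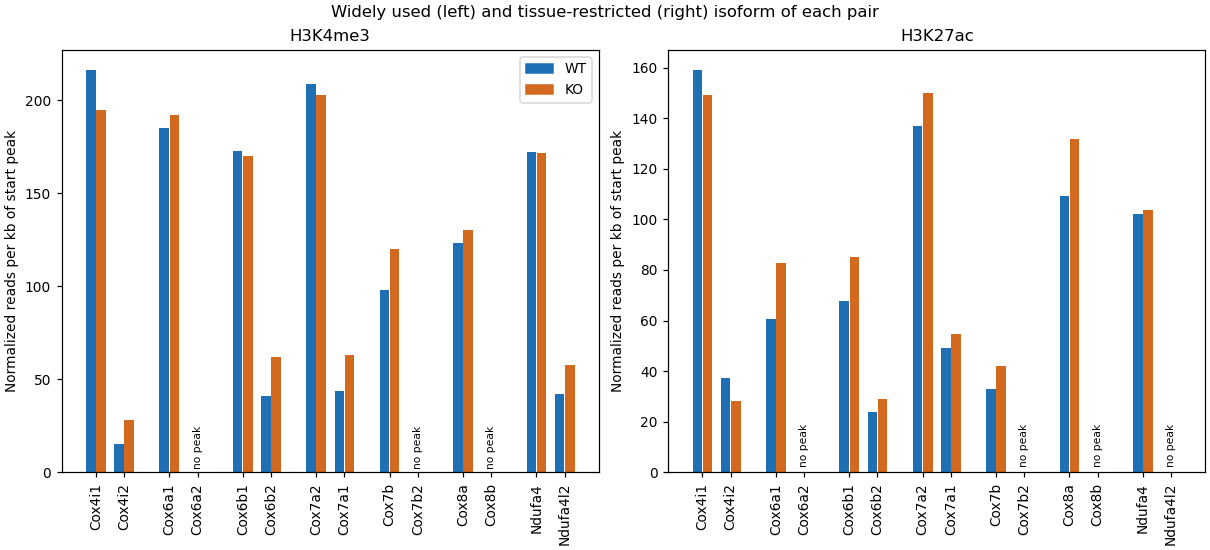
Normalized reads per kb of the peak over the gene start (vertical axes) for each pair of widely used (left) and tissue-restricted (right) isoform, WT in blue and KO in orange. Bars are single libraries; no tissue-restricted isoform reaches its partner in either mark.

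Promoter sequences of the group were searched for the letters bound by 3 factors known to control respiratory genes: NRF1 (GCGCANGCGC), the ETS family that includes GABPA (CCGGAAG) and YY1 (AAGATGGC), on both strands. RefSeq windows of 250 bases before to 50 after the start (GRCm38.p6) were found for 77 of the 93 genes, 83 windows in all. The sequences below are the 150 bases before the start on the gene's strand, with motif letters in capitals. The first 6 were picked to show the motifs at widely used genes, many of which lack them. The last 3 are tissue-restricted isoforms without them. Where a gene has several windows, the one with motifs is printed.
Sdha: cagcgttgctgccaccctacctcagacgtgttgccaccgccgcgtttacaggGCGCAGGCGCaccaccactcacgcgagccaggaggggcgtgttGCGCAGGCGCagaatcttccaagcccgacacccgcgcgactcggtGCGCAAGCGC
Sdhd: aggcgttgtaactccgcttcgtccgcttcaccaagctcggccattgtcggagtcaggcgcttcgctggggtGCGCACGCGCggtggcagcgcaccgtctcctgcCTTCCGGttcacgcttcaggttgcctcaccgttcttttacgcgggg
Cox6a1: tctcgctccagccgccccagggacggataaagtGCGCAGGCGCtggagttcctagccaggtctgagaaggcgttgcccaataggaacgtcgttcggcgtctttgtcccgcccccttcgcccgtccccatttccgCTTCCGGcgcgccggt
Cox6b1: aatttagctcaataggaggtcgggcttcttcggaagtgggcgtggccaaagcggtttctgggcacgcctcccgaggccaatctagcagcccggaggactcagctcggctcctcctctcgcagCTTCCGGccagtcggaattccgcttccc
Uqcrh: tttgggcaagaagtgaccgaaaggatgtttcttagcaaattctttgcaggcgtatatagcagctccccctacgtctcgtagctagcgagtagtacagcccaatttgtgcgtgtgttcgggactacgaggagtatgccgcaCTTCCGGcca
Atp5j: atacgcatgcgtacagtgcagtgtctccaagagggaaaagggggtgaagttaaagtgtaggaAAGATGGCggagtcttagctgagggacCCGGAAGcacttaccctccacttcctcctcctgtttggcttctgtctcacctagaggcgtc
Cox6b2: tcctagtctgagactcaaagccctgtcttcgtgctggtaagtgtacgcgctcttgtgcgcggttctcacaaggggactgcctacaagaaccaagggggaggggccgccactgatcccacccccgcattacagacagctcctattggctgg
Cox7a1: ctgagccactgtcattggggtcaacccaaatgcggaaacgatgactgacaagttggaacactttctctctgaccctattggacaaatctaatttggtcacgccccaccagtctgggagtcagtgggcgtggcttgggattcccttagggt
Cox8b: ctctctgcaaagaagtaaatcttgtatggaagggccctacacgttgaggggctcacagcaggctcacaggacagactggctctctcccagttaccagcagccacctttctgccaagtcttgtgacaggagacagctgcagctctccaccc
Sdha, the flavoprotein of succinate dehydrogenase, holds 3 NRF1 motifs, and Sdhd, its membrane anchor, an NRF1 and an ETS motif. Atp5j holds a YY1 and an ETS motif, and its start lies under the same H3K4me3 peak as that of Gabpa.

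NRF1 letters were in 24.1% of the 83 windows, compared with 9.15% of windows of genes with an H3K4me3 start peak and 4.60% of all 32851 windows. ETS letters were in 22.9%, 15.9% and 8.86% and YY1 letters in 14.5%, 3.95% and 2.75%. Any of the 3 was in 45 of the 83 windows (54.2%), against 25.9% and 14.7%. The core promoter letters TATAAA were in 9.64%, 7.08% and 13.6%. Complex II held a motif in 5 of 5 windows, complex I in 21 of 39, complex V in 11 of 18, complex III in 3 of 5 and complex IV in 3 of 14. None of the 4 windows of tissue-restricted isoforms held NRF1, ETS or YY1 letters, and their median number of CpG dinucleotides was 8.5 against 20 in the widely used genes. All 4 belong to complex IV, where most widely used genes lacked the letters too (Cox5a, Cox5b, Cox7a2, Cox7a2l, Cox7b, Cox7c and Ndufa4). Only Cox6a1, Cox6b1 and Cox8a held them there. A match shows the letters only, and these windows say nothing of binding.

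**Figure D3:**
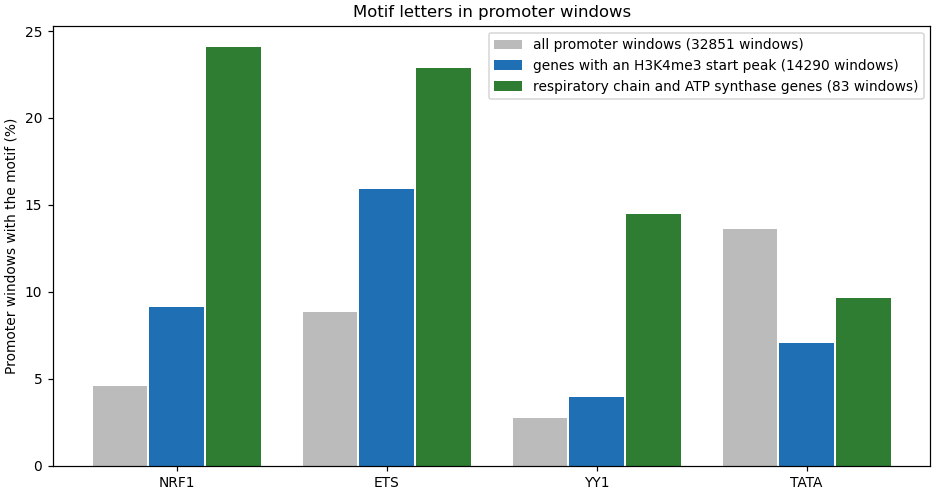
Share of promoter windows (vertical axis, percent) that hold the letters of each motif on either strand. Green bars, the respiratory chain and ATP synthase genes, exceed the blue bars (genes with an H3K4me3 start peak) for NRF1, ETS and YY1, at 24.1%, 22.9% and 14.5%.

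Many of these promoters are shared with a neighbouring gene. The H3K4me3 start peak also covered the start of another gene in 30 of 89 cases (33.7%), against 20.4% of all genes with such a peak, and the H3K27ac peak in 32 of 88 (36.4%, against 22.3%). Partners included Timm8b beside Sdhd, Rps28 beside Ndufa7, Ccdc127 beside Sdha and Eef1b2 beside Ndufs1. At such promoters the signal of both genes cannot be told apart. For 18 genes the only H3K4me3 peak over the start carries the neighbour's name in the table, so the sum over peaks named for the gene omits its promoter. Atp5j was one of them. Its start peak (mm9 chr16:84834074-84836777) held 720.2 normalized reads in the WT and 649.7 in the KO but is named for Gabpa, and the 4 peaks named for Atp5j summed to 65.9 and 93.5. Ndufa13 had 882.5 and 875.6 in a peak named for Tssk6 (mm9 chr8:72424415-72427776) and 14.1 and 35.7 under its own name. Uqcrh had 769.6 and 753.5 in a peak named for Lrrc41 (mm9 chr4:115746553-115749975) and 2.35 and 7.14 under its own name. Gene values are therefore given below both by name, as the tables assign peaks, and by position over the start.

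In H3K36me3 the name of a peak and the transcript it is annotated to parted further. Each peak is annotated to a single transcript or to none, and a wide peak can reach into another gene as well. Of 157 peaks named for these genes, 81 were annotated to the gene's own transcript and held 45.1% of the WT and 45.9% of the KO signal. Another 46, named for 23 genes, were annotated to the transcript of a different gene and held 50.5% and 49.4%. Over all peaks of the mark the share of WT signal annotated to a transcript other than that of the named gene was 33.5%. The largest sum, 6115 normalized WT reads and 5488 KO reads at Cox6c, came wholly from peaks annotated to Vps13b. The 93.9-kb peak named for Ndufb2, with 5004 and 4591, is annotated to Braf. Both Cox6c and Ndufb2 still had a peak within 5 kb downstream of the start. Cox8b, with no promoter mark, was credited with 1011 and 949 from a peak annotated to Psmd13. Conversely, 18 peaks annotated to transcripts of this family were named for other genes, among them 1528 and 1520 in Atp5f1, 1430 and 1368 in Ndufa10 and 1000.1 and 962 in Ndufv2. The values named for Ndufv2, a core flavoprotein subunit of complex I, were 83.7 and 50.5 from an intergenic peak.

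**Figure D4:**
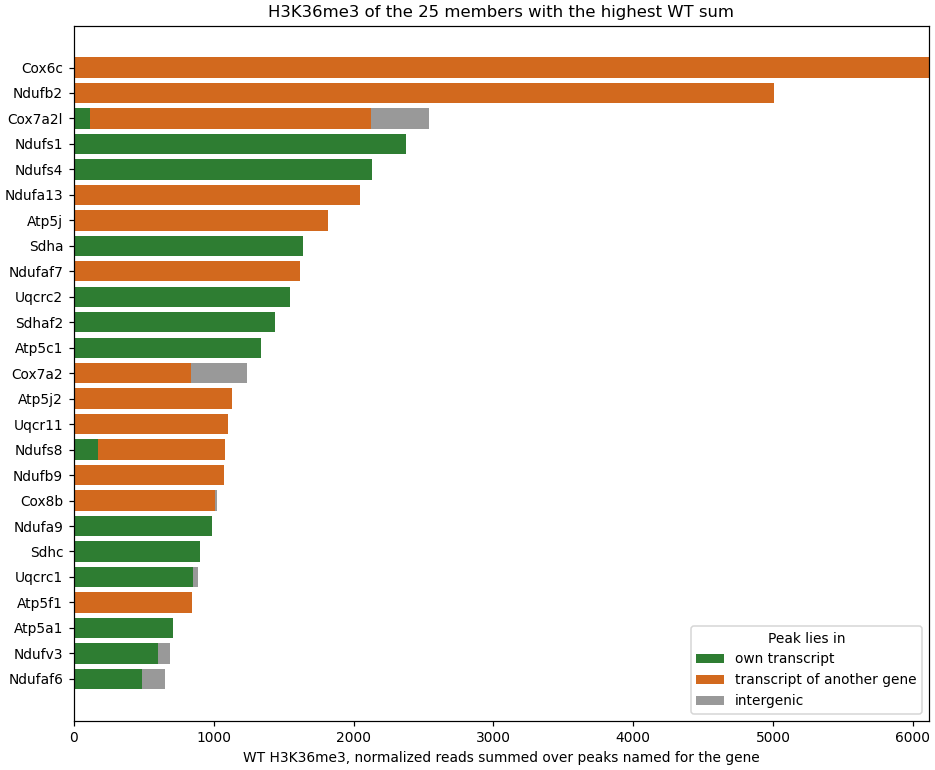
WT H3K36me3 (horizontal axis, normalized reads summed over peaks named for the gene) for the 25 genes with the highest sums. Colours show whether peaks are annotated to the gene's own transcript, to that of another gene or to none. The bars of Cox6c and Ndufb2, at 6115 and 5004, hold no peak annotated to their own transcript, though such peaks can reach into more than the annotated gene.

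Counted by transcript, 65 of the 93 genes had an H3K36me3 peak annotated to their own. Their median density was 42.8 normalized reads per kb in the WT and 43.1 in the KO, against 37.0 and 36.1 over all genes. The catalytic beta subunit Atp5b had 70.7 and 76.0, Sdhd 69.9 and 66.5, and the alpha subunit Atp5a1 67.5 and 66.8. The lowest value of a widely used gene was 19.4 and 22.0 in Ndufaf5, a complex I assembly factor. An H3K36me3 peak within 5 kb downstream of the start was present for 85 of 92 genes (92.4%), against 52.8% of all genes. Of the 21 widely used genes without a peak assigned to their own transcript, 18 had one there. The other 3 were the assembly factors Ndufaf2, Ndufaf4 and Sdhaf1. A downstream peak can belong to a neighbour: 5 of the 7 placed tissue-restricted isoforms had one too, among them Cox8b and Ndufa4l2, which lack H3K27ac at the start. In all, 62 of the 85 widely used genes carried all 4 marks at the start or, for H3K36me3, in a peak annotated to the transcript. Of the 8 tissue-restricted isoforms only 1 (Cox4i2) did, against 39.8% of all placed genes.

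Between genotypes, levels of the whole family were close to those of other genes. Change is log2 of (KO + 1) over (WT + 1) in normalized reads, minus its median over genes at or above the median signal of the mark, so 0 is the middle of well-covered genes, and the pseudocount of 1 understates changes of low values. By named peaks the median change was −0.07 for H3K4me1 (87 genes), 0.04 for H3K4me3 (80), 0.06 for H3K27ac (79) and −0.02 for H3K36me3 (74), against −0.02, 0.02, −0.04 and 0.01 over all genes. By position it was −0.05, 0.05, 0.09 and −0.01, against 0.00, 0.05, 0.01 and 0.01. H3K27ac lay farthest from all genes under both rules. Among members at or above the median signal its median change was −0.02 by name (43 genes) and −0.005 by position (40). Other gene groups also had H3K27ac medians above 0 by position, given under Other observations. By position 52 of 88 genes were above 0 in that mark, where 51.7% of all genes were. The count was 25 of 42 in complex I, 3 of 6 in II, 4 of 8 in III, 10 of 15 in IV and 10 of 16 in V.

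Few genes passed a 1.5-fold difference. By named peaks, 1 of 87 was higher in H3K4me1 and 3 were lower, where the shares over all genes were 3.88% and 11.5%. For H3K4me3 3 of 80 were higher and none lower, against 6.57% and 12.7%. For H3K27ac 1 of 79 was higher and 1 lower, against 4.5% and 16.0%, and for H3K36me3 none of 74 was higher and 1 lower, against 6.12% and 2.9%. The KO libraries were deeper, and with KO reads thinned to the number of WT reads both sets of figures moved. H3K4me1 then had 4 of 87 higher and 6 lower, against 5.31% and 5.49% of all genes, and H3K27ac 3 and 2 of 79, against 6.10% and 6.07%. For H3K4me3 they were 2 and 0 of 80, against 7.99% and 2.74%. All genes counted before thinning lay under the median signal. Among genes at or above it, none passed in either direction. The background there was 0.0845% higher and 0.349% lower in H3K4me1 (43 members). It was 0.377% and 0.454% in H3K4me3 (58 members), 0.402% and 0.391% in H3K27ac (43), and 0.0628% and 0.11% in H3K36me3 (39).

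Among genes at or above the median, the widest changes by name stayed under 1.5-fold. In H3K4me1 Uqcrc1 had 166 normalized reads in the WT and 247 in the KO (0.53, 0.10 to 0.99), and Uqcr11, a small complex III subunit, 265 and 194 (−0.49, −0.85 to −0.11). In H3K27ac Ndufb3 had 295 and 443 (0.53, 0.24 to 0.84) and Ndufs7, a core complex I subunit, 217 and 183 (−0.31, −0.67 to 0.07). In H3K4me3 the highest was Ndufa4l2, and the lowest Ndufc2, an accessory complex I subunit, with 299 and 249 (−0.33, −0.63 to −0.03). Its neighbours in that order were Ndufb2 with 299 and 253 (−0.31, −0.60 to −0.01) and Ndufa12 with 348 and 298 (−0.29, −0.57 to −0.02), both accessory subunits of the same complex. In H3K36me3 the highest was Cox7a1, with 575 and 601, nearly all of it in a peak annotated to Capns1, and the lowest Ndufs6.

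Most of the genes behind the 1.5-fold counts by name rested on few reads or on peaks away from the start. In H3K4me3 they were Ndufa13, Uqcrh and Sdhaf2, an assembly factor for complex II. Under the name Sdhaf2 there were 7.06 normalized reads in the WT and 15.6 in the KO (3 and 24 reads), while the peak over its start held 485 and 552, a change of 0.16 (interval −0.06 to 0.38). By position Ndufa13 had −0.04 (−0.21 to 0.13) and Uqcrh −0.06 (−0.24 to 0.12). In H3K27ac the higher one was Atp5f1, with 13.8 and 28.3 by name but 311 and 307 over its start. The lower one was Cox7b2, whose 3 peaks held 3 reads in each library. Each peak was thus at the minimum of 1 read in both, which fixes its change in advance. H3K4me1 gave Cox8c (2 and 26 reads) as higher. As lower it gave Cox7b2, again at the minimum, with 2 reads over 2 peaks in each library. The others were Ndufa1 (51.0 and 32.6 normalized reads) and Ndufa11 (91.7 and 61.5, all in the peak over its start). The intervals of Ndufa1 (−1.52 to 0.25) and Ndufa11 (−1.23 to 0.06) held 0. H3K36me3 gave Ndufv2 as lower, on 78 and 54 reads of an intergenic peak, a change of −0.70 (−1.23 to −0.19), while in its own transcript the change was −0.03 (−0.16 to 0.10).

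By position, H3K4me1 had 2 of 87 genes higher and 1 lower, against 5.86% and 3.67% of all genes. In H3K4me3 1 of 89 was higher and none lower (5.63% and 1.21%), in H3K27ac 2 of 88 were higher and none lower (4.52% and 5.06%), and in H3K36me3 1 of 65 was higher and none lower (5.76% and 2.9%). At or above the median signal only 1 gene passed upward and 1 downward, both in H3K4me1 (Atp5o and Ndufb6, of 54), where the background was 0.55% and 0.58%. In the other marks it was 0.264% and 0.403% (H3K4me3, 43 genes), 0.374% and 0.619% (H3K27ac, 40) and 0.0941% and 0.113% (H3K36me3, 18). Atp5o had 102 normalized H3K4me1 reads in the WT and 173 in the KO, a change of 0.77 (0.23 to 1.37). Its H3K27ac was 151 and 191, a change of 0.31 (−0.10 to 0.75). Its H3K4me3 was 351 and 342, and its H3K36me3 434 and 369, a change of −0.21 (−0.42 to −0.01). The accessory complex I subunit Ndufb6 went the other way in H3K4me1, with 160 and 105 and a change of −0.59 (−1.06 to −0.09). The higher H3K27ac values were at 2 more accessory subunits, Ndufb3 with 135 and 208 (0.60, 0.17 to 1.07), on a promoter shared with Fam126b, and Ndufc1 with 66.1 and 102.2 (0.60, −0.01 to 1.29). Cox4i2 gave the H3K4me3 and H3K36me3 counts, on 5 and 4 WT reads. It was also the other higher gene in H3K4me1, with 17.0 normalized reads in the WT and 27.2 in the KO.

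Several changes under 1.5-fold had intervals clear of 0. The delta subunit Atp5d held 361 and 269 of H3K27ac (−0.44, −0.73 to −0.15) in a peak shared with Dos, and 153 and 192 of H3K36me3 (0.34, 0.03 to 0.66). Its H3K4me3 differed little, 591 and 582. Ndufs6, an accessory complex I subunit, had 541 and 442 of H3K36me3 (−0.27, −0.45 to −0.08), and Uqcr10 128 and 94.5 (−0.41, −0.81 to −0.02). No adjustment was made for the number of genes looked at.

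The 4 tissue-restricted isoforms with an H3K4me3 start peak all lay above 0. Ndufa4l2 held 311 normalized reads in the WT and 423 in the KO (0.41, 0.14 to 0.70) and Cox6b2 101 and 153 (0.56, 0.09 to 1.07). Cox7a1 held 49.4 and 72.0 (0.50, −0.17 to 1.26) and Cox4i2 11.8 and 22.1 (0.82, −0.48 to 2.59). Genes picked by low WT density leaned the same way. Over the 2510 genes with a WT density no higher than that of these 4, the median H3K4me3 change was 0.35 (quartiles 0.09 and 0.62) and 81.0% lay above 0. Picking by low WT favours values above 0 in itself, since WT is the denominator of the change. These figures therefore cannot show that weak promoters differ between the genotypes.

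**Figure D5:**
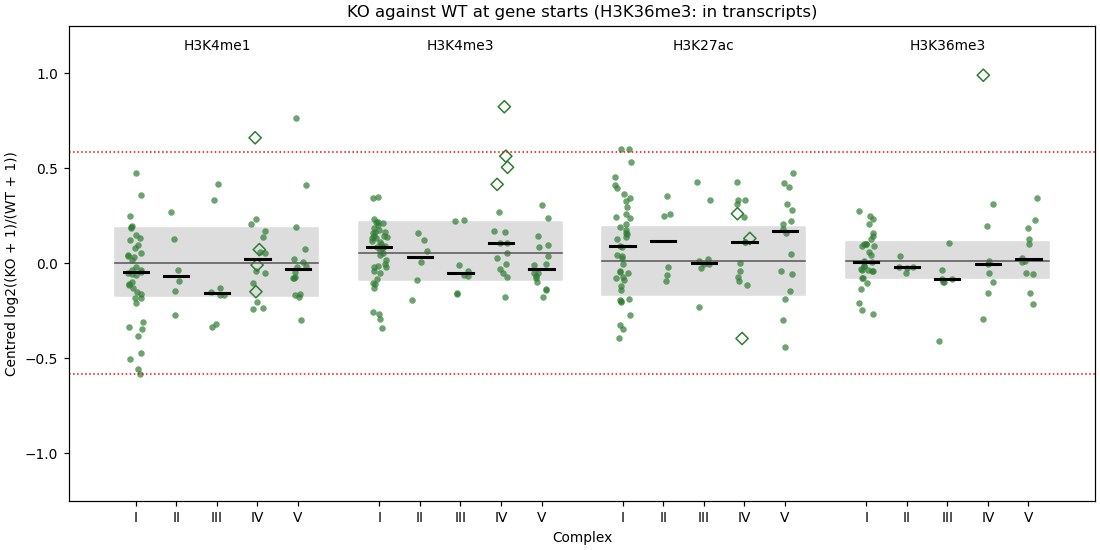
Change between KO and WT (vertical axis, centred log2) of each gene by position, for the 5 complexes and 4 marks. Points are genes, open diamonds tissue-restricted isoforms, black bars medians; grey bands span the quartiles of all genes and dotted lines mark 1.5-fold. In each mark nearly all points lie between the dotted lines, and the 4 H3K4me3 diamonds lie highest.

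Summed over their start peaks, the 42 complex I genes had 15147 normalized H3K4me3 reads in the WT and 15970 in the KO, a centred log2 difference of 0.05 (0.01 to 0.09). The H3K4me3 sum differed by 0.07 (0.003 to 0.15) in complex IV, with 4601 and 4947, by −0.01 (−0.10 to 0.07) in III, by −0.01 (−0.07 to 0.05) in V and by 0.003 (−0.10 to 0.11) in II. For H3K27ac the complex I sum was 8284 and 8944 (0.09, 0.03 to 0.15). For complex II the H3K27ac sum was 1839 and 1903 (0.03, −0.09 to 0.15), for complex III 2544 and 2597 (0.01, −0.09 to 0.11), for complex IV 3092 and 3283 (0.06, −0.03 to 0.16) and for complex V 3111 and 3274 (0.05, −0.04 to 0.15). H3K36me3 in transcripts differed by −0.06 (−0.13 to 0.01) in complex III and by no more than 0.02 in size in the other complexes. Without replicates these sums cannot separate genotype from library.

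Complex II is small enough to list in full. H3K4me3 over the start was 131 and 146 normalized reads per kb in Sdha, 161 and 165 in the iron-sulphur subunit Sdhb, 162 and 173 in the membrane anchor Sdhc and 163 and 146 in Sdhd. Sdhaf1 had 171 and 165, and Sdhaf2 152 and 173. These 6 genes thus stayed within a narrow band in both libraries, while H3K27ac ranged more widely, from 53.0 and 68.8 in Sdhaf1 to 141 and 169 in Sdhc. By position every interval of the change in these 6 genes, in the marks they carried, held 0. By name Sdhd had 638 normalized H3K4me3 reads in the WT and 565 in the KO over 3 peaks, a change of −0.25 (−0.44 to −0.04), and 1539 and 1408 normalized H3K27ac reads over 4 peaks, a change of −0.19 (−0.32 to −0.05).

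Other genes of the pathway also carried these marks over their starts. Of 36 further assembly factors 34 were named in the tables and all 34 had H3K4me3 and H3K27ac over the start, as did all 15 named genes of electron carriers and quinone synthesis. By position 2 assembly factors were past 1.5-fold higher in H3K4me1 (Ttc19 and Cox16), 1 was higher (Ttc19) and 1 lower (Uqcc2) in H3K36me3, and none was past it in the other marks. Of the electron carriers 1 (Coq6) was higher in H3K36me3. All of these rested on 22 or fewer WT reads. Cycs, cytochrome c, had 152 and 181 normalized H3K4me3 reads per kb and 131 and 121 of H3K27ac. Among 13 regulators Nrf1 had 265 and 230 per kb of H3K4me3 (−0.23, −0.41 to −0.05), Yy1 249 and 211 (−0.27, −0.40 to −0.13) and the mitochondrial transcription factor Tfam 134 and 122 (−0.16, −0.41 to 0.10). Higher H3K4me3 in the KO stood at Ppargc1a, a coactivator of mitochondrial genes, with 62.6 and 92.8 per kb (0.54, 0.14 to 0.96) and no H3K27ac, and at Polrmt, the mitochondrial RNA polymerase, with 89.7 and 132 (0.52, 0.06 to 1.02). In H3K27ac Polrmt was past 1.5-fold higher and Ppargc1b, a coactivator related to Ppargc1a, past it lower, on 2 and 5 WT reads. Pprc1, another related coactivator, held 211 and 135 normalized H3K4me1 reads (−0.63, −1.04 to −0.20), and it was the only regulator past 1.5-fold on more than 5 WT reads.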

How the data were processed

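The authors deposited 1 table per mark, in which each consensus peak has a signal (normalized reads) for each genotype's library and a log2 fold of KO over WT, used as a check only. The submitters' processing notes name build mm9 and, for reads, Bowtie2 2.2.3, bcl2fastq 2.16.0 and Trimmomatic 0.32, and for peaks HOMER, DiffBind, MACS2 2.1.0 and R 3.1.1. Order, settings and any input subtraction are not given in the sources used here. The 2 samples titled as input DNA, whose antibody field names rabbit IgG, were not used. Signals were whole multiples of the column minimum (1 read) within 0.01 of a read in 100% of peaks. No peak lies under 1 read, so 0 and 1 read cannot be told apart, and the log2 of a peak at 1 read in each is fixed at −2.52 (H3K4me1), −1.86 (H3K4me3), −2.16 (H3K27ac) or −0.20 (H3K36me3). A count test on the recovered reads could not be fitted, since 1 library per group leaves no residual degrees of freedom, and so none of the genes was called.

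Signals were summed per gene over peaks named for it (main), or over peaks within 500 bases of its start, whichever gene they are named for, and for H3K36me3 over peaks annotated to its transcript. The second rule was chosen after seeing the data. Starts in mm9 were solved from the deposited peak centres and distances, within 2 bases where several peaks agree. Change is log2 of (KO + 1) over (WT + 1), centred on genes at or above the median signal. Counting intervals are 95% exact binomial ones (Clopper-Pearson) on reads, and PCR copies are not independent molecules. No filter on low values was applied. The values of 1 member are not reported by name here.

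Members, gene lists, the 1.5-fold threshold and the naming rule were chosen with earlier results of these data known. The rule takes, per mark, the 3 highest and 3 lowest members by change (at or above the median) and by WT density, members past 1.5-fold, isoform pairs, complex II and genes without a peak. Not every value it takes is printed, and genes named by position, motif or neighbour were chosen after their values were seen. Promoter sequences are RefSeq (GRCm38.p6), matched by Entrez gene identifier or, failing that, by symbol, with no coordinate taken from that build. The steps were tested on simulated data. Computations used scipy 1.17.1, pandas 2.3.3, numpy 2.4.6 and, for plots, matplotlib 3.10.9, under Python 3.11.15.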

Additional observations from a re-analysis of the deposited data

How the results depend on the processing

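Of 1124 values of single named members under 10 alternatives, 1093 stayed within the counting interval of the reported value and 27 lay outside it. The other 4 were past 1.5-fold in the main values and changed sign. Sign changes of smaller values were not counted. The 69 values limited to genes at or above the median signal repeat the main ones and could not differ. Without centring, or centred on all peaks, every gene of a mark moves by the same constant. All 120 values stayed inside under each. By position over the start, added after seeing the data, H3K4me3 of Ndufa13 became −0.041 and of Uqcrh −0.060 and H3K27ac of Atp5f1 −0.042. With KO reads thinned to the number of WT reads, H3K4me3 of Uqcrh became −0.012. For the last the cause was not tested; the others rest on different peaks. Counts of members past 1.5-fold are given as higher and lower. With a pseudocount of 10 they were 0 and 1 for H3K4me1 (2.22% and 5.81% of all genes), and H3K4me3 had 1 higher (3.74%); with a pseudocount of 0 H3K4me3 had 1 lower (12.85%). Centred on all peaks, the median change was 0.090 for H3K4me3, 0.11 for H3K27ac (3 higher, 5.33%) and −0.049 in H3K36me3. Uncentred, it was 0.11 for H3K4me3, 0.11 for H3K27ac (3 higher, 5.38%) and −0.042 in H3K36me3. With a running median as centre, H3K4me1 had 2 higher (5.32%) and H3K27ac 0 lower (6.96%). With peaks limited by distance to the start or to gene bodies, H3K4me3 had 1 higher (7.68%), H3K27ac 2 and 0 (5.84% and 8.93%), and H3K36me3 0 lower (2.79%). With the nearest peak only, H3K4me1 had 3 higher (9.49% of all genes), H3K4me3 6 and 1 (9.27% and 14.3%), H3K27ac 2 lower (19.5%) and H3K36me3 2 and 2 (12.7% and 7.01%). At or above the median signal every count was 0, and the median was −0.0079 for H3K4me3 and −0.024 for H3K27ac. With thinned reads H3K4me1 had 4 and 6 (5.31% and 5.49%), H3K27ac 3 and 2 (6.10% and 6.07%), and H3K36me3 0 lower (2.99%). Over the start or in the transcript, H3K4me1 had 2 and 1, H3K4me3 1 higher, H3K27ac 2 and 0 and H3K36me3 1 and 0, with the shares of all genes given above. The cause of these shifts was not tested. Depth limits the WT libraries of H3K4me1, H3K4me3 and H3K27ac: the counting interval of a member spanned a median of 0.91, 0.56 and 0.79 on the log2 scale, against 0.38 for H3K36me3. No paired analysis was possible because each group has 1 library.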

Other observations

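Other housekeeping gene groups gave levels near those of the respiratory chain. H3K4me3 covered the start of 72 of 74 cytosolic ribosomal protein genes, 39 of 41 proteasome genes and 17 of 17 genes of pyruvate dehydrogenase and the citric acid cycle, at medians of 160, 179 and 178 normalized reads per kb in the WT and 169, 193 and 177 in the KO. Glycolysis genes (22 of 23 covered) differed in shape, with a median H3K4me3 width of 7.41 kb against 1.89 kb in the respiratory chain, a density of 128 in the WT and 145 in the KO, and H3K27ac peaks of 8.22 kb. H3K36me3 was annotated to the own transcript of 16 of 17 citric acid cycle genes and 17 of 23 glycolysis genes. Their median densities were 39.6 and 52.1 in the WT and 39.8 and 53.9 in the KO. Median H3K4me3 change by position was 0.04 for ribosomal, 0.01 for proteasome, 0.05 for citric acid cycle and 0.14 for glycolysis genes, against 0.05 for the respiratory chain and for all genes. For H3K27ac it was 0.07, 0.14, 0.14 and 0.09 in the same order, against 0.09 for the respiratory chain and 0.01 for all genes. Fh1, fumarate hydratase, was the 1 citric acid cycle gene past 1.5-fold in any mark, with 85.3 and 134 normalized H3K27ac reads (0.62, 0.08 to 1.22).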
